A study of Mus musculus with 3 samples.

Results

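The bone morphogenetic protein (BMP) genes described here are 10 genes chosen by name, *Bmp2*, *Bmp4*, *Bmp7*, *Bmpr1a*, *Bmpr1b*, *Bmpr2*, *Acvr1*, *Smad1*, *Smad5*, and *Smad4*. All 10 were found, each in 1 row, among the 55421 named genes of the count table. They were measured by RNA-seq in ALSCs, pluripotent mouse stem cells derived from the epiblast of gastrulae at embryonic day 6.5. The embryos came from ICR females mated with GOF/GFP males, whose transgene is an *Oct4* reporter without the proximal enhancer, and the cells grew in N2B27 medium with Activin A and LIF on fibronectin. The series holds 1 group of 3 libraries, replicates 1, 2, and 3, so no test between conditions was possible. The study calls its replicates biological, but how many derived lines stand behind the 3 libraries is not given in the sources used here, and p-values below measure only the spread between these libraries.

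BMP ligands are secreted dimers of the TGF-beta superfamily. They bind a pair of type I and a pair of type II receptor kinases at the cell surface, and the type I receptor then phosphorylates the receptor SMADs SMAD1, SMAD5, and SMAD9, which enter the nucleus with the shared partner SMAD4. Activin A and Nodal use a parallel branch through SMAD2 and SMAD3, with the same SMAD4. In the gastrulating embryo, BMP4 from the extra-embryonic ectoderm and BMP2 from the visceral endoderm pattern the neighbouring epiblast, and BMP4 is required for primordial germ cells. In naive ESC culture BMP4 with LIF supports self-renewal through ID proteins.

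The levels are given as FPKM, the number of reads per kilobase of gene, scaled to library size, so that genes of unequal length can be compared. The libraries held 18037342 to 18724038 counts on named genes, and 1 read on a gene of 1 kb was worth 0.0534 to 0.0554 FPKM. A gene was called detected when it had more than 3 counts in every library, which 15405 genes had. All 9 epiblast and primed markers examined were at 1 FPKM or more in every library, and *Pou5f1*, which encodes OCT4, was at 648 ± 25.3 FPKM (SD, n = 3). For the cells that usually supply BMP, the extra-embryonic ectoderm markers *Elf5* and *Cdx2* had at most 1 count per library and *Tpbpa* had 0. Of the 11 genes of that list, 4 (*Krt8*, *Ascl2*, *Ets2*, and *Eomes*) reached 1 FPKM in every library. The summed level of the list was 25.1 to 26.7 FPKM, and its highest gene was *Krt8*, at 16.1 ± 0.642 FPKM (SD, n = 3). Of 11 visceral endoderm markers none reached 1 FPKM in every library, *Ttr*, *Apob*, and *Rhox5* had 0 counts, and the sum was 0.948 to 1.90 FPKM. The highest of them was *Amn*, at 1.38, 1.04, and 0.511 FPKM, so that 1 gene reached the threshold when replicate 3 was left out. The 8 primitive streak and mesoderm genes were all under 1 FPKM, and *Evx1* had 0 counts. Of 8 fibroblast genes, *Thy1* (6.88 ± 0.400 FPKM), *Col1a1* (5.04 ± 1.12 FPKM), and *Fbln2* (1.22 ± 0.0634 FPKM; SD, n = 3 for each) reached 1 FPKM in every library, *Dcn* and *Lum* had 0 counts, and the sum was 12.6 to 14.2 FPKM. The part of such cells in the levels below was not tested.

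All 10 genes were detected in every library, at levels from 0.287 ± 0.0343 FPKM (*Bmp2*) to 29.0 ± 4.38 FPKM (*Smad4*) (SD, n = 3 for each). In bulk RNA, a lower level in all cells and expression in fewer cells cannot be told apart. *Smad4*, *Bmpr1a*, *Smad5*, *Bmp4*, *Smad1*, *Acvr1*, and *Bmpr2* reached 1 FPKM in each library, whereas *Bmp7*, *Bmpr1b*, and *Bmp2* were under 1 FPKM in all 3. By comparison, 20.1% of the named genes reached 1 FPKM in all libraries. The median over the 10 genes was 3.18 FPKM, against 4.35 FPKM over all detected genes. The order of the 10 levels was the same in replicates 1, 2, and 3. Of the 9 pairs of neighbours in that order, the ranges of the 3 libraries overlapped for 2, *Bmp7* with *Bmpr1b* and *Bmpr1b* with *Bmp2*.

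**Figure D1:**
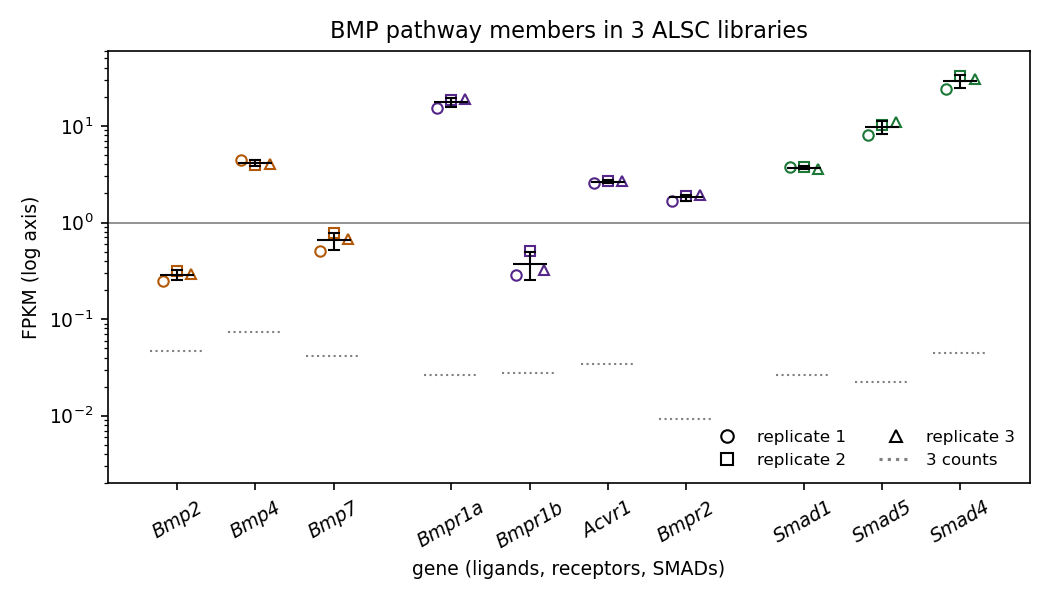
FPKM (log axis) of the 10 BMP genes in the 3 ALSC libraries, grouped as ligands, receptors, and SMADs. Open symbols are libraries, black bars are mean ± SD, dotted lines mark the level that 3 counts would give, and the grey line marks 1 FPKM; *Bmp2*, *Bmp7*, and *Bmpr1b* lie under that line in every library and *Smad4* is the highest gene.

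Among the ligands, *Bmp4* was the predominant transcript. *Bmp4* (ENSMUSG00000021835; GRCm38 chromosome 14, 46383520 to 46390669, minus strand) was at 4.48, 3.92, and 3.995 FPKM in replicates 1, 2, and 3, from 182, 165, and 162 counts. The values of replicates 2 and 3 lay close together and that of replicate 1 was the highest, with a mean of 4.13 ± 0.302 FPKM (SD, n = 3). This level was above that of 49.0% of the detected genes, near the middle of the expressed transcriptome.

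*Bmp7* (ENSMUSG00000008999; chromosome 2, 172868012 to 172940321, minus strand), a ligand of another BMP subgroup that prefers ACVR1 as type I receptor, was at 0.509, 0.771, and 0.676 FPKM from 37, 58, and 49 counts. *Bmp2* (ENSMUSG00000027358; chromosome 2, 133552159 to 133562885, plus strand), the closest relative of *Bmp4*, was at 0.249, 0.315, and 0.296 FPKM from 16, 21, and 19 counts. Both had their lowest value in replicate 1, where *Bmp4* had its highest, and 3 counts would have given up to 0.0414 FPKM for *Bmp7* and 0.0468 FPKM for *Bmp2*. Both were thus low but over this floor, which covers counting error only.

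Within a library, where depth cancels, the *Bmp4* level was 17.99, 12.4, and 13.5 times that of *Bmp2* in replicates 1, 2, and 3, a log2 ratio of 3.85 ± 0.28 (SD, n = 3). It was 8.79, 5.09, and 5.91 times that of *Bmp7*, a log2 ratio of 2.68 ± 0.41 (SD, n = 3). *Bmp4* was thus the highest of the 3 ligands in 3 of 3 libraries, by a margin well over the spread of the ratio, although 3 libraries cannot give a two-sided sign test p under 0.25. Of the summed FPKM of the 3 ligands, *Bmp4* held 81.4 ± 3.71% (SD, n = 3), *Bmp7* 12.9 ± 2.90%, and *Bmp2* 5.67 ± 0.814%.

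The other BMP and GDF ligands were scarce apart from *Gdf3*. Of 12 such genes, *Gdf3* alone reached 1 FPKM in every library, at 13.2 ± 1.41 FPKM (SD, n = 3). GDF3 is a pluripotency-associated ligand of this superfamily that is known to signal through the Nodal branch and to bind BMPs. *Bmp8b*, which acts in germ cell induction in the embryo, was at 0.543 ± 0.186 FPKM, *Gdf6* at 0.486 ± 0.0835 FPKM, and *Bmp6*, of the *Bmp7* subgroup, at 0.484 ± 0.152 FPKM (SD, n = 3 for each). *Bmp3*, *Bmp10*, *Bmp15*, and *Gdf2* had 0 counts in all 3 libraries, which for *Bmp3* allows up to 0.0225 FPKM.

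The receptors were led by *Bmpr1a*. *Bmpr1a* (ENSMUSG00000021796; chromosome 14, 34410734 to 34503341, minus strand) encodes ALK3, the main type I receptor for BMP2 and BMP4 in the epiblast, and was at 15.3, 18.4, and 18.8 FPKM in replicates 1, 2, and 3. Its mean of 17.5 ± 1.89 FPKM (SD, n = 3) was above that of 79.1% of the detected genes. *Bmpr1b* (ENSMUSG00000052430; chromosome 3, 141837136 to 142169425, minus strand), which encodes the related receptor ALK6, was at 0.287, 0.511, and 0.325 FPKM from 31, 57, and 35 counts. Replicate 2 was highest for *Bmpr1b* and the other 2 libraries lay close together, so its SD of 0.119 FPKM was large against its mean of 0.375 FPKM.

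*Acvr1* (ENSMUSG00000026836; chromosome 2, 58388644 to 58567157, minus strand), the type I receptor ALK2, was nearly the same in the 3 libraries, at 2.58, 2.71, and 2.69 FPKM. The type II receptor *Bmpr2* (ENSMUSG00000067336; chromosome 1, 59763400 to 59879014, plus strand) was at 1.67, 1.88, and 1.91 FPKM, from 543, 632, and 619 counts. It is the longest of the 10 genes, with 17983 bases in the authors' table, so that its counts exceeded those of *Acvr1* while its level per length was lower in every library. The means were 2.66 ± 0.0715 FPKM for *Acvr1* and 1.82 ± 0.130 FPKM for *Bmpr2* (SD, n = 3 for each).

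Within a library, *Bmpr1a* was 53.4, 36.1, and 57.7 times as high as *Bmpr1b* in replicates 1, 2, and 3, the widest ratio among the pairs compared, with a log2 ratio of 5.59 ± 0.36 (SD, n = 3). The ratio of *Bmpr1a* to *Acvr1* was 5.96, 6.80, and 6.99, a log2 ratio of 2.71 ± 0.12 (SD, n = 3). *Bmpr1a* held 85.2 ± 0.952% of the summed FPKM of the 3 type I receptors, *Acvr1* 13.0 ± 0.997%, and *Bmpr1b* 1.81 ± 0.477% (SD, n = 3 for each). The makeup of the type I receptors thus differed little between libraries.

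The type II receptors that BMPs share with activins were at or above the level of *Bmpr2*. *Acvr2a* was at 2.003, 2.87, and 2.52 FPKM, and *Acvr2b* was at 3.34, 12.2, and 10.4 FPKM, each above *Bmpr2* in 3 of 3 libraries. The value of *Acvr2b* in replicate 1 lay far under the other 2, and the size of its excess over *Bmpr2* depended on the library, at 1.998, 6.498, and 5.44 times. Of the 10 other receptors and co-receptors examined, 7 reached 1 FPKM in every library. They included the Activin and Nodal type I receptor *Acvr1b* at 11.3 ± 1.79 FPKM, the TGF-beta type I receptor *Tgfbr1* at 9.67 ± 1.61 FPKM, and *Neo1*, the neogenin receptor to which the BMP co-receptors of the RGM family bind, at 4.39 ± 0.958 FPKM (SD, n = 3 for each). The endothelial type I receptor *Acvrl1* stayed under 1 FPKM, at 0.603 ± 0.142 FPKM (SD, n = 3).

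**Figure D2:**
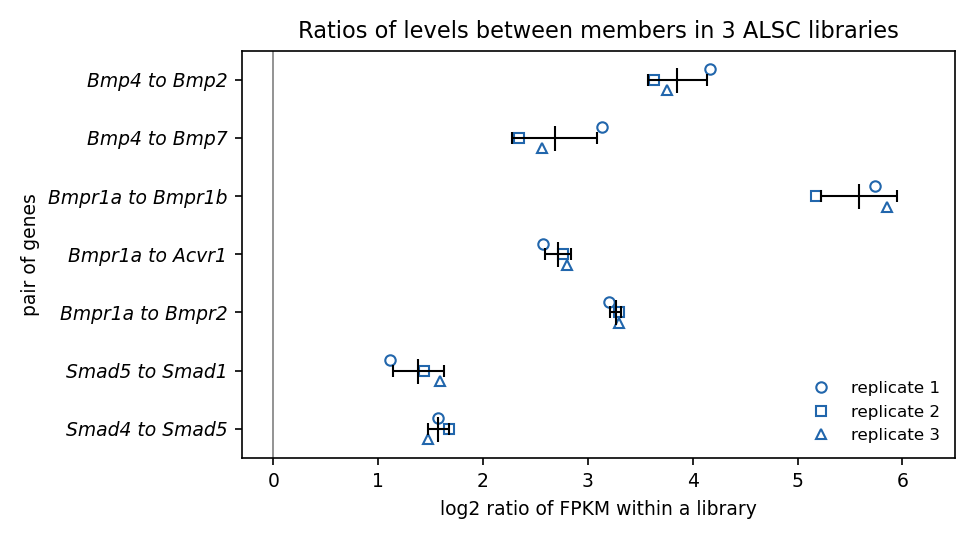
Log2 ratio of FPKM between pairs of BMP genes within each ALSC library. Open symbols are libraries and black bars are mean ± SD; all ratios lie above 0, the highest being *Bmpr1a* to *Bmpr1b* (log2 ratio 5.59) and the lowest *Smad5* to *Smad1* (1.38).

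The SMADs held the highest level of the 10 genes. *Smad4* (ENSMUSG00000024515; chromosome 18, 73639009 to 73703780, minus strand), the partner shared with the Activin branch, was at 24.2, 32.7, and 30.2 FPKM in replicates 1, 2, and 3. Its mean of 29.0 ± 4.38 FPKM (SD, n = 3) was above that of 87.0% of the detected genes, with replicate 1 apart from the other 2 libraries. *Smad5* (ENSMUSG00000021540; chromosome 13, 56703010 to 56742377, plus strand) was at 8.14, 10.2, and 10.8 FPKM, with the same library lowest. *Smad1* (ENSMUSG00000031681; chromosome 8, 79338395 to 79399518, minus strand) was even across the libraries, at 3.76, 3.78, and 3.59 FPKM.

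Of the receptor SMADs of the BMP branch, *Smad5* was the predominant transcript. Its level was 2.17, 2.71, and 3.02 times that of *Smad1* in the same library, a log2 ratio of 1.38 ± 0.24 (SD, n = 3). *Smad9*, the third receptor SMAD of this branch, had 0, 6, and 6 counts, and in replicate 1 it was not detectable at this depth. *Smad5* held 72.0 ± 3.26% and *Smad1* 27.7 ± 3.49% of the summed FPKM of *Smad1*, *Smad5*, and *Smad9* (SD, n = 3 for each). Of the receptor SMADs of the Activin branch, *Smad3* was at 7.34 ± 1.81 FPKM and *Smad2* at 5.52 ± 0.832 FPKM (SD, n = 3 for each), so *Smad2* was lower than *Smad5* and *Smad3* higher than *Smad1* in 3 of 3 libraries.

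The order of *Bmp4* and *Smad1* rested on the gene length used. The lengths in the authors' table equal the union of all GENCODE M21 exons for each of the 10 genes, retained introns included. With the length of the longest coding transcript instead, *Smad1* (3775 in place of 6262 bases) came to 6.16 FPKM and *Bmp4* (2064 in place of 2248 bases) to 4.499 FPKM, the reverse of their order above. The other genes kept their order, but *Smad5* was then only 0.82 higher than *Smad1* on the log2 scale. The order of these 10 genes against other genes, such as *Smad3* against *Smad1* or *Acvr2a* against *Bmpr2*, was not recomputed with this length. Of the 50-base words of each longest coding transcript, 95.9% to 100% occurred in no annotated transcript of another gene. Few reads from these transcripts could thus match another gene's transcript exactly. Exon bases outside the longest coding transcripts were not searched. Exons of antisense genes overlapped 3.96% of the *Bmp4* exon bases and 4.57% of those of *Bmpr1a*, and these genes held at most 5 counts in a library. A gene on the same strand shared 1.35% of the *Smad5* exon bases and had 0 counts.

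The sequences before the transcription starts are shown for the highest ligand, for the receptor near the bottom of the range, and for the main receptor SMAD, because they differ in a feature that the choice of genes did not use, the number of CG dinucleotides. RefSeq start sites of build GRCm38.p6 were matched for 7 of the 10 genes, with 11 start sites in all. *Bmp2*, *Bmp7*, and *Smad4* were not matched. Of the 250 bases before each start, those windows that held no annotated exon are printed for *Bmp4*, *Bmpr1b*, and *Smad5*, 5′ to 3′ on the gene's strand, with every CG in capitals. The window of *Bmp4* is chr14:46390670-46390919 (minus strand), those of *Bmpr1b* are chr3:141982265-141982514 for the upstream and chr3:141931589-141931838 for the downstream start (minus strand), and that of *Smad5* is chr13:56702760-56703009 (plus strand).
Bmp4: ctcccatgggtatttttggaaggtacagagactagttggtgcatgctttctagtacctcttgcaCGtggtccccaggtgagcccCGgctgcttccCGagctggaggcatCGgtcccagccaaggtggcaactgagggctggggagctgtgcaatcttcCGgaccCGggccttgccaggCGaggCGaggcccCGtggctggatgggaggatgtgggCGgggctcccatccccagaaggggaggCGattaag
Bmpr1b upstream start: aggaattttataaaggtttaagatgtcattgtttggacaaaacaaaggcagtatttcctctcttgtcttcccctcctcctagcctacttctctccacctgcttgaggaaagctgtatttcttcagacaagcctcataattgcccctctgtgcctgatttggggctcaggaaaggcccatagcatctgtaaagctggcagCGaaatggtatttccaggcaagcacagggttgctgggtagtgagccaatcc
Bmpr1b downstream start: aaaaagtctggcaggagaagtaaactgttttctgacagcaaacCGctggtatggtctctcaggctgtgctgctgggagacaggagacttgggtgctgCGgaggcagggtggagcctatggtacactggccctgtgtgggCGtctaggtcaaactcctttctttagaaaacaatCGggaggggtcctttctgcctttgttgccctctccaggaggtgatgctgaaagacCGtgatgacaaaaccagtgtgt
Smad5: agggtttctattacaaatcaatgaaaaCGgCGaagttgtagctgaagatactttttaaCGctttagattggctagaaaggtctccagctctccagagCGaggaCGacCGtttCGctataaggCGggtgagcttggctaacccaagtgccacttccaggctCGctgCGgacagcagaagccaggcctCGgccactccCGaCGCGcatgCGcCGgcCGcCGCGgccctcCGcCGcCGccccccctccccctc

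All matched starts of *Bmpr1b* lie inside the GENCODE gene, so that these windows are not the region before its outermost annotated end at 142169425, which was not analysed here. The windows of *Bmpr1b* held 1 to 5 CG, and that of *Bmp4* held 11. Those of *Bmpr1a*, *Bmpr2*, *Acvr1*, *Smad1*, and *Smad5* all held 22 or more, up to 46 for *Acvr1*. CG was searched on the given strand, where it reads the same as on the other, and 92.1% of the 32851 windows of this length in the table held at least 1, with a median of 6. The CG count of the upstream *Bmpr1b* window was above that of 7.87% of all windows. The other *Bmpr1b* windows, with 5 CG each, were above 44.4%, near the median. The *Bmp4* window was above 64.4% and that of *Smad5* shown here above 85.2%. *Bmp4*, with fewer CG in its window, was higher in FPKM than *Acvr1* and *Bmpr2* with either gene length. A relation between level and CG count was not tested. The motif GGCGCC is a sequence that BMP SMADs are known to bind, and it contains a CG. It occurred in 3 of the 11 windows, those of *Bmpr1a*, *Bmpr2*, and 1 start of *Smad5*, against 9.59% of all windows. These 3 windows held 36, 22, and 27 CG, and all of them overlapped annotated exons. Some windows of the same gene overlapped each other, and enrichment of the motif was not tested. A match of letters is not a measured binding site.

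*Smad4*, *Smad5*, and *Bmpr1a* differed from library to library beyond counting error, and all 3 were lowest in replicate 1. After scaling with edgeR's TMM factors (0.968 to 1.02), their counts passed the test (chi-square test of homogeneity, Benjamini-Hochberg adjusted over 16944 genes, p = 9.45e-13, 1.90e-08, and 5.24e-06). These are 3 of 10 genes, and 47.2% of all tested genes were called in the same way, so the share was no higher than in the table as a whole. Their scaled counts in replicate 1 were 0.807, 0.811, and 0.866 times the geometric mean of the other 2 libraries. Without replicate 1, none of the 10 genes was called (2 had an unadjusted p below 0.05, *Smad4* and *Bmpr1b*) and 8.11% of all genes were, while 3 were called without replicate 2 (42.9% of all genes) and 4 without replicate 3 (46.7% of all genes). The test sets the libraries against counting error only and says nothing of a condition.

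*Bmp2*, *Bmp4*, *Bmp7*, *Bmpr1b*, *Bmpr2*, *Acvr1*, and *Smad1* did not pass this test. The nearest to it was *Bmpr1b*, with adjusted p = 0.0583 (chi-square test) and a highest scaled count 1.68 times its lowest, and it passed without replicate 3 (adjusted p = 0.0414) or on plain library totals (adjusted p = 0.0342). The most even was *Acvr1*, whose highest scaled count was 1.01 times its lowest (adjusted p = 0.998, chi-square test). A p over the threshold does not show that a level was equal in the libraries, and for *Bmp2*, with 16 to 21 counts in a library, only a large difference could have been seen.

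The scaled count was lowest in replicate 1 for 7 of the 10 genes, against 40.9% of all tested genes. It was highest there for 2 of the 10, *Bmp4* and *Smad1*, against 41.8% of all tested genes. Replicate 1 also held fewer counts of long genes and more of short ones, a trend shared by the whole table. The median log2 ratio of replicate 1 to replicates 2 and 3 ran from 0.39 in the group of the shortest genes to -0.53 in that of the longest. *Bmp4*, the shortest of the 10 genes, was at 0.25 with 0.21 for its length group, and *Smad5* was at -0.30 with -0.21 for its group.

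Not every gene lay near the median of its length. *Smad4* had a log2 ratio of -0.31 where genes of its length had a median of 0.06, and *Bmpr2* had -0.11 where its group, the longest genes, had -0.53. With the trend on length removed, *Smad4* and *Smad5* were still called (adjusted p = 5.48e-18 and 0.0303, chi-square test), *Bmpr1a* was no longer called (adjusted p = 0.142), and *Bmpr2*, higher in replicate 1 than genes of its length, was called (adjusted p = 4.26e-07). That is again 3 of 10 genes, against 38.6% of all genes. When the trend on GC content was removed as well, a setting chosen after seeing the data, *Bmpr1a* was called again (adjusted p = 0.000105, chi-square test) and *Smad1* as well (adjusted p = 0.0307), and 37.9% of all genes were. The part of these trends in the differences of single genes was not tested otherwise.

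**Figure D3:**
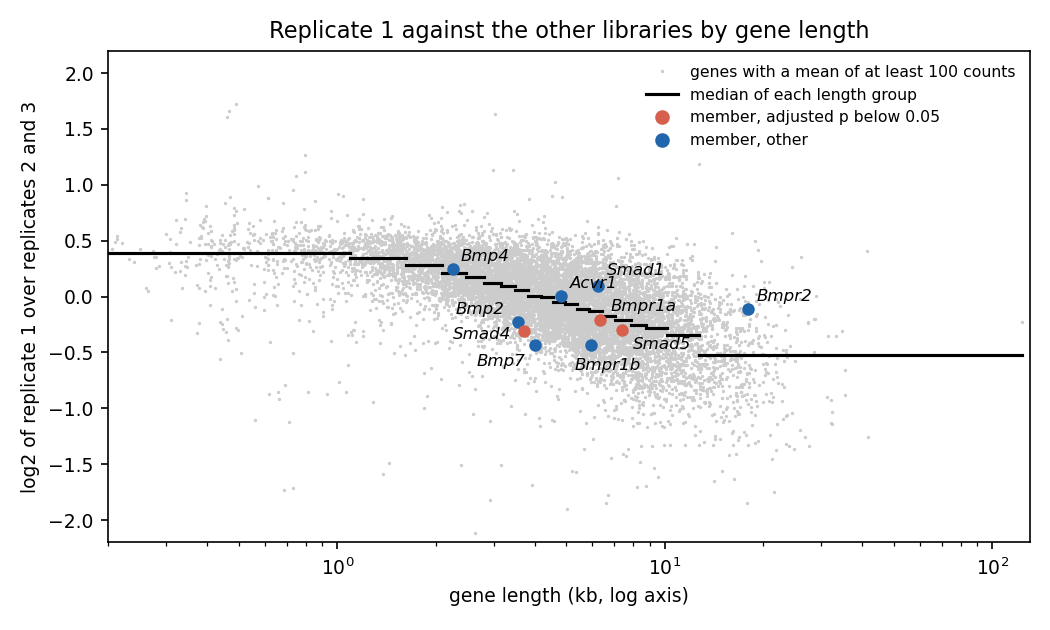
Log2 ratio of replicate 1 to replicates 2 and 3 (TMM-scaled counts) against gene length (kb, log axis) for 10577 genes whose counts averaged 100 or more, of which 19 lie outside the axes, and for the 10 BMP genes. Black steps are medians of 20 length groups and fall from 0.39 to -0.53; *Smad4* lies under and *Bmpr2* above the step of its length.

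The spread between libraries beyond counting error was estimated with edgeR as the biological coefficient of variation. It had a median of 0.136 over the 10 genes and of 0.140 over the 13863 genes in the fit. Among the 10, *Smad1* was lowest at 0.116 and *Bmpr1b* highest at 0.214, above 4.23% and 92.3% of all genes in the fit. These percentages compare genes of unlike abundance. The value that edgeR fitted for genes of like abundance was 0.143 for *Smad1* and 0.195 for *Bmpr1b*. Without replicate 1, both medians were smaller, at 0.0596 for the 10 genes and 0.0559 for all genes.

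Extracellular antagonists and modulators of BMP were partly expressed. Of 16 such genes, 7 reached 1 FPKM in every library and 4 reached 2 FPKM. The 7 include *Furin* (2.50 ± 0.511 FPKM) and *Bmp1* (1.19 ± 0.165 FPKM; SD, n = 3 for each), proteases that process BMP precursors or cleave chordin and are no antagonists. *Bmper* and *Sost*, which encode secreted BMP-binding proteins, had at most 3 counts in any library. The highest were *Fstl1*, a follistatin-like protein, at 28.2 ± 2.86 FPKM, *Twsg1*, which binds BMPs together with chordin, at 11.4 ± 1.30 FPKM, *Cer1*, an antagonist of BMP and Nodal and a target of Nodal, at 5.14 ± 0.771 FPKM, and *Fst*, which encodes follistatin, an inhibitor of activins and of some BMPs, at 2.79 ± 0.129 FPKM (SD, n = 3 for each). The classical BMP antagonists were lower, with *Chrd* at 0.866, 0.922, and 0.930 FPKM and *Nog* at 0.620, 0.347, and 0.327 FPKM. Both thus lay under *Bmp4* in every library. *Grem1* had counts in replicate 2 alone, and only 4.

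Inside the cell, all 10 regulators examined reached 1 FPKM in every library. *Fkbp1a*, whose product FKBP12 binds type I receptors and keeps them inactive, was at 106 ± 6.38 FPKM (SD, n = 3). *Tob1*, an antiproliferative protein that binds BMP SMADs, was at 14.3 ± 0.216 FPKM (SD, n = 3). The SMAD co-repressors *Ski* and *Skil* were at 15.3 ± 2.96 and 12.6 ± 2.02 FPKM, and *Smurf2*, a ubiquitin ligase that marks SMADs and receptors for degradation, at 14.9 ± 2.52 FPKM (SD, n = 3 for each). Each of these 5 genes was above *Smad5* in every library. The inhibitory SMADs *Smad7* and *Smad6* were at 9.09 ± 0.960 and 2.60 ± 0.112 FPKM, and the decoy receptor *Bambi* was at 4.78 ± 0.816 FPKM (SD, n = 3 for each).

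Of 19 genes known as BMP targets, 9 were at 1 FPKM or more in every library and 10 were under it in every library. The 9 were led by *Smad7* and by *Id3* at 8.20 ± 0.842 FPKM (SD, n = 3), of the ID family of transcription inhibitors. *Zbtb7b* followed at 6.87 ± 0.862 FPKM, while *Zbtb7a* of the same family was at 1.97 ± 0.454 FPKM (SD, n = 3 for each). The other ID genes were also among the 9, with *Id1* at 5.98 ± 1.45, *Id2* at 4.62 ± 0.483, and *Id4* at 1.97 ± 0.147 FPKM (SD, n = 3 for each). *Gata2* and *Dlx5*, targets in the surface ectoderm and mesoderm, had 0 counts, and *Gata3*, *Tbx3*, and *Hand1* had at most 3 in any library. The remaining targets under 1 FPKM were *Tfap2c*, *Prdm1*, *Zbtb7c*, *Msx1*, and *Msx2*. Their means were 0.829, 0.115, 0.0886, 0.0710, and 0.0442 FPKM. The list shares *Smad6*, *Smad7*, and *Bambi* with the inhibitors named above, and *Smad7* is also known as a target of the Activin and TGF-beta branch. The median of the target list was 0.829 FPKM, against 3.18 FPKM for the 10 genes of the pathway itself. This median includes the genes without counts, and activity of the pathway was not tested.

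**Figure D4:**
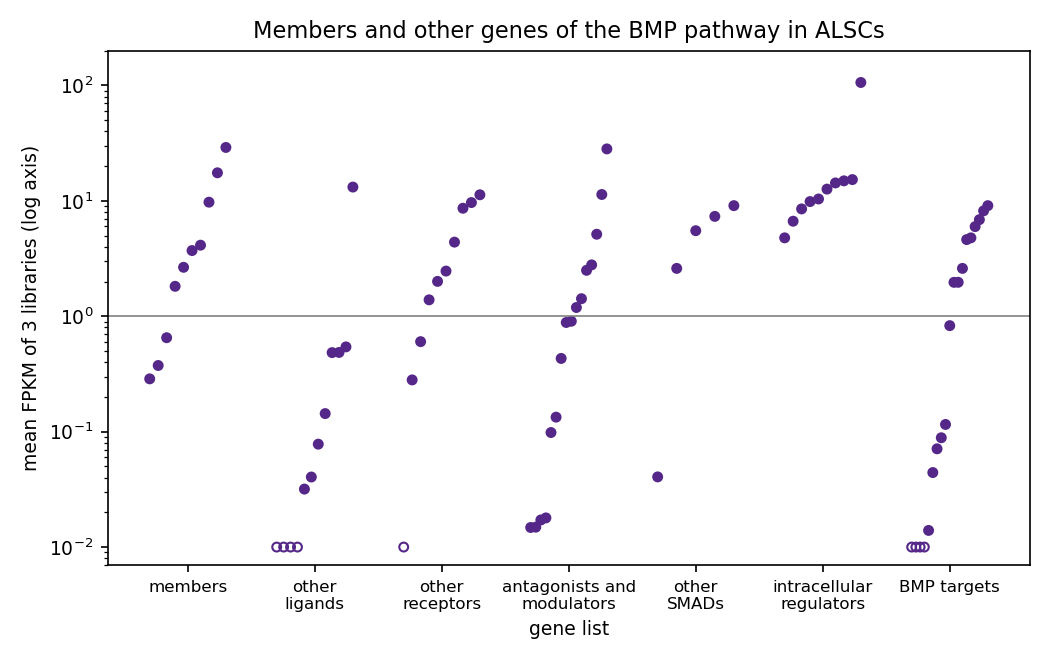
Mean FPKM over the 3 ALSC libraries (log axis) of the 10 BMP genes (members) and of the other genes of the pathway by list. Each point is 1 gene, open points mark means under 0.01 FPKM, and the grey line marks 1 FPKM; all 10 intracellular regulators lie above that line, against 1 of 12 other ligands and 9 of 19 targets.

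The other genes of the pathway also varied between the libraries. By the same chi-square test, 8 of 10 intracellular regulators, 7 of 9 tested other receptors, 3 of 5 other SMADs, 7 of 13 tested targets, 4 of 12 tested antagonists and modulators, and 2 of 5 tested other ligands were called, against 47.2% of all genes. Whether one list differed from another in this respect was not tested. Without replicate 1 the counts were 1, 1, 1, 2, 1, and 1 in the same order, against 8.11% of all genes. The genes called in this way differ in depth, and genes with more counts pass at smaller differences, since 66.9% of the 10577 genes whose counts averaged 100 or more were called.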

How the data were processed

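Total RNA of ALSCs was sequenced as polyA libraries. The authors deposited raw counts per gene, without normalization, with gene positions and lengths. The paired-end reads were mapped to GRCm38, and the submitters' processing notes name HISAT2 2.0.5. The counting program and its use of strand are not given in the sources used here. The columns headed EPI_AL were taken as ALSC replicates 1 to 3 by their number. The table's 3 other columns of counts, headed AF_SCs, match no sample of this series and were not used. The 317 rows without a gene name held 0.165% to 0.182% of the counts and were left out.

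FPKM was computed from count, deposited length, and total count. Variation between libraries was tested with a chi-square test on genes with at least 10 counts, against TMM library sizes, and the coefficient of variation came from edgeR's tagwise dispersion in an intercept-only model. Both were tested on simulated counts drawn from the mean of each gene, without a length or GC trend. For the chi-square test, changes were set only in genes whose counts averaged 100 or more. All genes otherwise varied there by counting error alone. The simulation thus does not cover such trends, nor changes in genes of lower count. Nor does it cover the chi-square test on libraries with a wider spread. Length and GC trends were medians in 20 groups of genes whose counts averaged 100 or more. Of those genes, 99.96% had a GC content from GENCODE M21. The genes described and all lists were chosen with earlier results of these data known. All 10 genes are described. From each list of the pathway, the 2 to 4 genes of highest level, genes at 0 counts, and partners of the 10 genes are named. For the targets, all genes under 1 FPKM are named as well. Alternatives covered library size, gene length, thresholds, filters, and each replicate left out in turn. R 4.3.3, edgeR 4.0.16, DESeq2 1.42.0, Python 3.11.15, pandas 2.3.3, NumPy 2.4.6, SciPy 1.17.1, and matplotlib 3.10.9 were used.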

Additional observations from a re-analysis of the deposited data

How the results depend on the processing

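No paired analysis was possible because only 1 group of samples exists here. None of the 5 recomputed log2 ratios (*Bmp4* to *Bmp2* and to *Bmp7*, *Bmpr1a* to *Bmpr1b* and to *Acvr1*, *Smad5* to *Smad1*) changed sign under an alternative. With the length of the longest coding transcript, *Smad1* (6.16 FPKM) passed *Bmp4* (4.499 FPKM), the median level of the 10 genes was 4.198 in place of 3.18 FPKM, 1 in place of 2 neighbouring pairs overlapped, and the log2 ratios of *Bmpr1a* to *Acvr1* and of *Smad5* to *Smad1* were 2.26 and 0.82 in place of 2.71 and 1.38. The number of the 10 genes called by the chi-square test was 5 in place of 3 with length and GC trends removed, against 37.9% of all genes. With 1 replicate left out it was 0 to 4, against 8.11% to 46.7% of all genes. The median biological coefficient of variation of the 10 genes was 0.0716 with DESeq2's gene-wise dispersion, against 0.0962 over all genes. With 1 replicate left out it was 0.0596 to 0.182, against 0.0559 to 0.185 over all genes. Overlapping neighbours numbered 0 to 2 with 1 replicate left out. Each summary value was compared with its value under each alternative, and the other 59 of these comparisons stayed within their limits. The limit was 1 SD for levels and ratios and a set fold change for counts and the coefficient of variation. Among the 59 were those of the 7 genes at 1 FPKM and of the ratio of *Bmpr1a* to *Bmpr1b*. They also include some values in the ranges above, such as 4 genes called. Of all lists, 51 to 52 genes were at 1 FPKM when a replicate was left out. A mean of 3 values moves by less than 1 SD whichever of them is dropped, so the single libraries are not tested by it. At 2 FPKM, 4 in place of 7 antagonists and modulators were counted. At 0.5 FPKM, 2 streak genes and 1 visceral endoderm gene were, in place of 0, and without replicate 3 the latter count was 1. Depth limited *Bmp2*, *Bmp7*, and *Bmpr1b* most.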
